A study of Danio rerio with 12 samples.

Results

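The comparison of 750 with 250 ng/mL bepridil was made between 6 of the 12 libraries of a dose series in zebrafish larvae, 3 libraries at each dose, and covers all genes. Both groups were whole AB larvae collected 120 hours post fertilization, with RNA of 15 pooled larvae in each library. The 750 ng/mL group and the 250 ng/mL group differed only in the bepridil concentration the labels give, and neither carried a mutation or transgene. The other 6 libraries were untreated larvae (0 ng/mL) and larvae at 1295 ng/mL, 3 of each. They entered here through the shared gene filter, scaling and estimate of spread. They also served as neighbouring levels and to choose genes by their change at 1295 ng/mL. The labels call the tissue embryo and give no clutch for any pool, so p-values measure the spread between these pools, which may be technical.

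Bepridil was developed as an antianginal drug. It blocks L-type and T-type channels, through which calcium enters heart, muscle and nerve cells, and it also binds calmodulin, the calcium sensor protein that passes calcium signals to kinases and channels. Calcium entry is coupled to transcription in part through immediate early genes of the Fos, Jun, Egr and Nr4a families. Gene roles given below are those known for the vertebrate orthologs, mostly from mammals.

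The 6 libraries held between 15571556 and 16698634 counts. Levels are given in CPM, read counts divided by the effective library size, and log2 fold changes are 750 minus 250 ng/mL with their standard error (SE). Defining markers of 13 cell types, among them muscle, lens, photoreceptor, neuron, liver, pancreas and skin, were detected in every library. Their summed levels overlapped between the doses in all of these but skeletal muscle. Muscle markers summed to between 20560 and 21560 CPM in 750 ng/mL larvae and to between 17920 and 20120 CPM in 250 ng/mL larvae. In such whole-larva pools, fewer cells of a type and less RNA per cell cannot be told apart.

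One library of each dose stood apart. On the first principal component of the 6 libraries, which held 53.04% of the variance, replicate 3 at 750 ng/mL lay at 48.8 and replicate 3 at 250 ng/mL lay at the opposite end, at -27.9. The other 4 libraries lay between -10.9 and -1.75. Because these 2 libraries pull in opposite directions, many list medians and some gene values are given below with and without both or either. Values given only with all 6 libraries may also rest on these 2.

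No gene passed edgeR's test at 750 against 250 ng/mL. Of 21581 tested genes, 0 (0%) had an adjusted p under 0.05 in this quasi-likelihood fit, and the smallest adjusted p was 0.619. At an unadjusted p under 0.05 there were 1681 genes (7.79%), of which 648 (3.00%) were higher and 1033 (4.79%) lower at 750 ng/mL. The 3 libraries at 750 ng/mL lay wholly above those at 250 ng/mL for 1605 genes (7.44%) and wholly below them for 1356 genes (6.28%). DESeq2 called 5 genes and limma-voom called 0. The DESeq2 calls were ldlra, socs2, wu:fc34e06 and dsg2.1, all lower, and dnaja, higher.

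The estimates were narrow enough to bound most differences. Of the 20444 genes averaging at least 1 CPM, 94.3% had a 95% interval lying within a 2-fold difference in either direction, and 70.5% lay within 1.5-fold. Among the 12526 genes at 10 CPM or more these shares were 98.7% and 88.2%. A fitted difference of at least 2-fold was seen for 25 genes at 1 CPM or more, 10 of them higher and 15 lower at 750 ng/mL. The missing calls do not show that the doses act alike below those bounds.

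**Figure D1:**
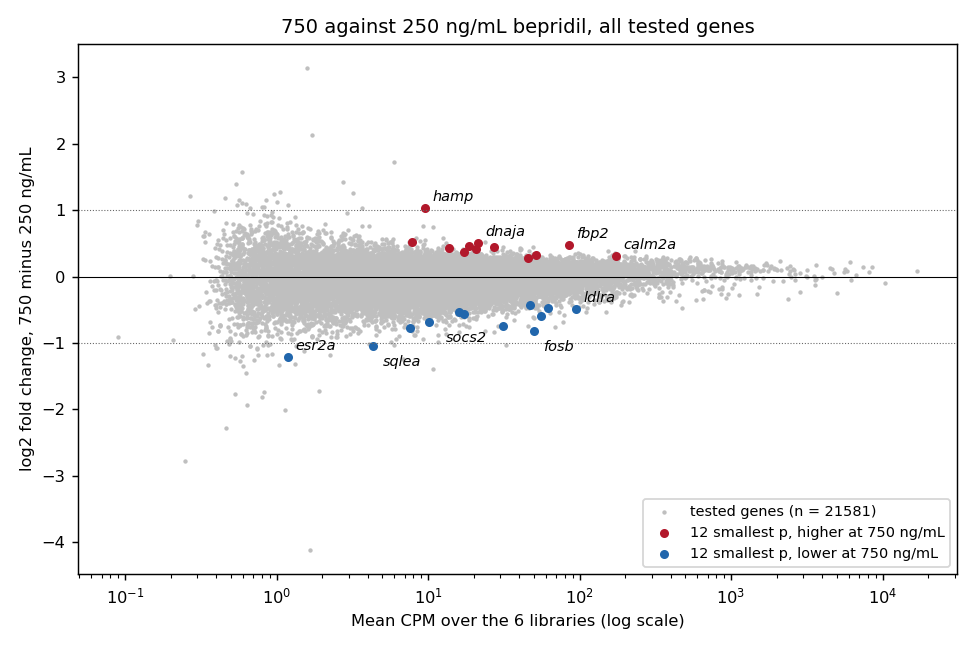
The log2 fold change of 750 over 250 ng/mL larvae (vertical axis) is plotted against the mean CPM over the 6 libraries (log axis) for 21581 tested genes, with the 12 higher (red) and 12 lower (blue) genes of smallest p among curated genes at 1 CPM or more; dotted lines mark 2-fold. No gene passed an adjusted p of 0.05 in edgeR, while DESeq2 called 5, among them ldlra, socs2 and dnaja.

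The average distance between libraries of the 2 doses lay between the average distances within 750 and within 250 ng/mL. Over genes at 1 CPM or more, the standard deviation of the log2 difference averaged 0.340 over the 9 pairs that cross the doses. It averaged 0.362 over the 3 pairs within 750 ng/mL and 0.295 over the 3 pairs within 250 ng/mL. The largest distance, 0.540, was between the replicate 3 libraries of the 2 doses. Replicates 1 and 2 lay 0.246 apart within 750 ng/mL and 0.249 apart within 250 ng/mL, and the 4 pairs of them across doses lay 0.241 to 0.252 apart.

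**Figure D2:**
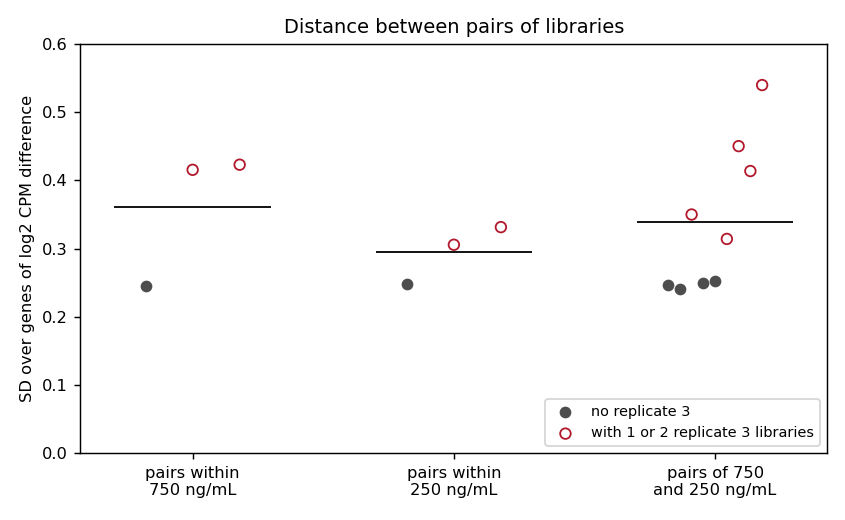
Each point is a pair of libraries and gives the standard deviation over genes of their log2 CPM difference (vertical axis) within 750 ng/mL, within 250 ng/mL, or between them; bars are means (0.362, 0.295 and 0.340), and open points involve a replicate 3 library. Without replicate 3, pairs between doses lie at the same height as pairs within a dose.

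Genes of sterol uptake and synthesis lay mostly lower at 750 ng/mL. Cells import cholesterol through the LDL receptor or build it from acetyl-CoA, under control of the Srebp factors. Of 34 tested genes 0 passed in edgeR, and 13 had an unadjusted p under 0.05. All 13 were lower, against 4.79% of all genes. The groups did not overlap for 10 genes (29.4%), all lower, against 6.28% of all genes. The median log2 fold change was -0.22, against -0.0015 over all tested genes, and 28 of 34 were below 0. Leaving out both replicate 3 libraries gave a median of -0.26, with 2 genes above 0.

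The LDL receptor gene ldlra had 81.2, 75.2 and 82.3 CPM in 750 ng/mL larvae, against 104, 118 and 111 CPM in 250 ng/mL larvae. Its log2 fold change of -0.49 ± 0.09 (SE) had the smallest p among curated genes at 1 CPM or more, with an adjusted p of 0.619 in edgeR and 0.0116 in DESeq2. Across the series its mean level was 53.4 CPM at 0, 111 CPM at 250, 79.5 CPM at 750 and 50.5 CPM at 1295 ng/mL. The level at 750 ng/mL therefore stood between those at 0 and 250 ng/mL.

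Enzymes of the synthesis route were lower too. Hmgcra, the rate-limiting HMG-CoA reductase, had 18.4, 13.2 and 20.2 CPM in 750 ng/mL larvae and 34.9, 30.6 and 25.6 CPM in 250 ng/mL larvae, a log2 fold change of -0.81 ± 0.23. Sqlea, squalene epoxidase, had 2.82, 2.93 and 2.80 CPM in 750 ng/mL larvae, against 5.21, 5.56 and 6.83 CPM in 250 ng/mL larvae. Its log2 fold change was -1.04 ± 0.27, and its libraries at 750 ng/mL lay close together. Msmo1, a sterol demethylation enzyme, had 50.1, 34.6 and 47.3 CPM in 750 ng/mL larvae, against 63.0, 80.04 and 57.1 CPM in 250 ng/mL larvae. The groups of these 3 genes did not overlap. Lower values with no overlap were also seen for hmgcs1 (-0.49), cyp51 (-0.56) and lss (-0.51), and for abcg1 (-0.31), a sterol exporter rather than a synthesis enzyme. Insig1, which holds Srebp in the endoplasmic reticulum, was at -0.04 ± 0.16 with overlapping groups. Hmgcs1, cyp51, lss, abcg1 and insig1 were named outside the rule of smallest p, with their values known. In the whole list 6 genes were above 0, the highest at 0.44.

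Immediate early and AP-1 genes, which encode transcription factors and enzymes switched on within minutes by calcium, growth factors or stress, also lay mostly lower. Of 64 tested genes 0 passed in edgeR. An unadjusted p under 0.05 was seen for 16, all lower, against 4.79% of all genes. The 750 ng/mL libraries lay wholly below the 250 ng/mL libraries for 19 (29.7%), against 6.28% of all genes. The median log2 fold change was -0.18, and 50 of 64 were below 0. With both replicate 3 libraries left out it was -0.14, with 15 genes above 0.

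Fosb, a Fos family partner in AP-1, had 46.8, 34.01 and 28.1 CPM in 750 ng/mL larvae, against 66.0, 70.09 and 57.0 CPM in 250 ng/mL larvae, a log2 fold change of -0.82 ± 0.18. Fosl2, another Fos family member, had 55.9, 49.5 and 50.3 CPM in 750 ng/mL larvae and 73.9, 65.2 and 76.5 CPM in 250 ng/mL larvae. Ptgs2b, a prostaglandin synthase, had 44.1, 39.6 and 30.7 CPM in 750 ng/mL larvae, against 50.6, 57.9 and 49.6 CPM in 250 ng/mL larvae. All 3 were separate between the doses, with replicate 3 the lowest 750 ng/mL library for fosb and ptgs2b. The nuclear receptor gene nr4a1 was at -0.42 ± 0.15, jund at -0.58 ± 0.23 and the growth factor response gene cyr61 at -0.41 ± 0.12, none overlapping. Egr1, the best known gene of the class, overlapped at -0.18 ± 0.25. Nr4a1, jund, cyr61 and egr1 were named outside the rule of smallest p, with their values known. In the whole list 14 genes were above 0, the highest at 0.30.

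Genes that respond to glucocorticoids, the stress steroids, had a median of -0.11 over 50 tested genes. Of these 12 (24%) lay wholly lower at 750 ng/mL, against 6.28% of all genes, and 1 (2%) wholly higher, against 7.44% of all genes. The median was -0.14 with both replicate 3 libraries left out. The list's mean log2 CPM deviation was -0.147, -0.080 and -0.005 in 750 ng/mL larvae and -0.019, 0.118 and 0.133 in 250 ng/mL larvae. As a list the doses therefore overlapped. Klf9, a Krüppel-like transcription factor that the glucocorticoid receptor induces, had 58.6, 68.6 and 62.9 CPM in 750 ng/mL larvae, against 89.7, 103 and 90.4 CPM in 250 ng/mL larvae. It is also a member of the immediate early and AP-1 list, so the 2 lists are not separate sets of genes. Lpin1, a phosphatidate phosphatase, had 82.1, 96.7 and 105 CPM in 750 ng/mL larvae and 106, 156 and 131 CPM in 250 ng/mL larvae. The highest 750 ng/mL library for lpin1 lay just under the lowest 250 ng/mL library. Foxo3b, a Forkhead factor of the fasting response, was at -0.32 ± 0.11, also without overlap, but at -0.17 without replicate 3 at 750 ng/mL and -0.16 without both replicate 3 libraries.

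Among cytokine signalling genes, socs2, a feedback inhibitor of growth hormone signalling, had 27.0, 25.99 and 17.4 CPM in 750 ng/mL larvae, against 38.1, 40.3 and 39.29 CPM in 250 ng/mL larvae. Its log2 fold change was -0.74 ± 0.14, and -0.56 without both replicate 3 libraries. The growth hormone receptor gene ghrb was at -0.41 ± 0.13 with overlapping groups. Lepb, a leptin gene, had 0.173, 0.0599 and 0.304 CPM in 750 ng/mL larvae, against 1.68, 0.556 and 7.28 CPM in 250 ng/mL larvae. That difference of -4.12 ± 1.202 rests on few reads, and it was -2.60 without replicate 3 at 250 ng/mL, where the level was highest.

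Of 56 keratin and junction genes of the epidermis, 12 (21.4%) lay wholly lower at 750 ng/mL, against 6.28% of all genes. The list median was -0.05, and -0.07 without both replicate 3 libraries. Dsg2.1, a desmosomal cadherin that joins epithelial cells, had 40.4, 41.4 and 38.3 CPM in 750 ng/mL larvae, against 53.6, 52.6 and 55.8 CPM in 250 ng/mL larvae. Replicates were close in both groups, and its log2 fold change was -0.43 ± 0.08. The desmocollin gene dsc2l (-0.38 ± 0.10), the plakophilin gene pkp3a (-0.32 ± 0.10) and the transglutaminase gene tgm5l (-1.18 ± 0.32) also lay wholly lower, pkp3a at -0.21 without both replicate 3 libraries. Epidermis markers summed to between 13850 and 14720 CPM in 750 ng/mL larvae and to between 14660 and 15900 CPM in 250 ng/mL larvae, and their part in these values was not tested.

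The 12 genes of smallest p on the lower side held 5 more. Cyp2r1, a vitamin D 25-hydroxylase, had 5.07, 5.81 and 5.97 CPM in 750 ng/mL larvae, against 10.23, 9.46 and 9.18 CPM in 250 ng/mL larvae, a log2 fold change of -0.78 ± 0.17. Esr2a, an estrogen receptor gene, had 0.634, 0.719 and 0.792 CPM in 750 ng/mL larvae, against 1.496, 1.98 and 1.51 CPM in 250 ng/mL larvae. Both were close to their untreated means, which were 5.72 CPM for cyp2r1 and 0.737 CPM for esr2a. Cers2b, a ceramide synthase gene, was at -0.57 ± 0.12, itcha, which encodes a ubiquitin ligase, at -0.54 ± 0.12, and slc48a1a, a heme transporter gene, at -0.68 ± 0.16. None of the 3 overlapped between doses. Without both replicate 3 libraries cers2b was at -0.43, itcha at -0.35 and slc48a1a at -0.49.

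**Figure D3:**
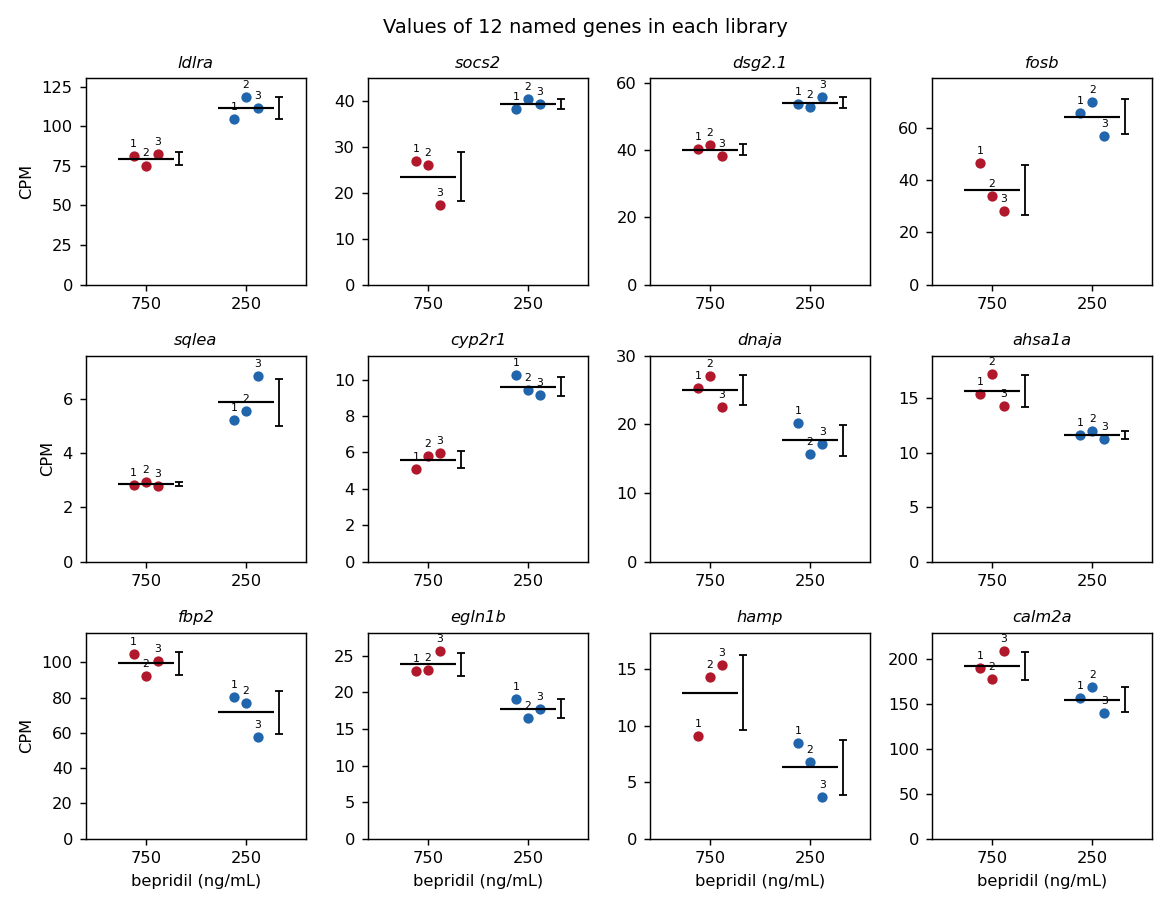
CPM of 12 genes in each library (vertical axes from 0) at 750 ng/mL (left, red) and 250 ng/mL (right, blue); numbers are replicates, bars are means and whiskers SD (n = 3). The first 6 genes are lower and the last 6 higher at 750 ng/mL, with no overlap in any of the 12, while none passed an adjusted p of 0.05 in edgeR; DESeq2 called ldlra, socs2, dsg2.1 and dnaja.

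On the higher side, the smallest p belonged to dnaja, a DnaJ co-chaperone gene of the Hsp70 system. It had 25.4, 27.0 and 22.6 CPM in 750 ng/mL larvae, against 20.2, 15.6 and 17.2 CPM in 250 ng/mL larvae, a log2 fold change of 0.50 ± 0.11. Ahsa1a, which encodes an activator of the Hsp90 ATPase, had 15.4, 17.2 and 14.3 CPM in 750 ng/mL larvae, against 11.6, 11.99 and 11.3 CPM in 250 ng/mL larvae. Of 57 tested heat shock and chaperone genes 0 passed in edgeR and 45 were above 0, with a median of 0.08. Of the 57 genes 11 (19.3%) lay wholly higher at 750 than at 250 ng/mL, against 7.44% of all genes. With both replicate 3 libraries left out the median of 750 minus 250 ng/mL was 0.02, and 34 were above 0.

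Egln1b, an oxygen-sensing prolyl hydroxylase gene, had 22.9, 23.1 and 25.6 CPM in 750 ng/mL larvae, against 19.2, 16.5 and 17.7 CPM in 250 ng/mL larvae. Gpx8, a peroxidase of the endoplasmic reticulum, had 9.51, 9.64 and 8.52 CPM in 750 ng/mL larvae, against 6.34, 7.29 and 5.65 CPM in 250 ng/mL larvae. Hamp, which encodes the iron hormone hepcidin, had 9.10, 14.3 and 15.3 CPM in 750 ng/mL larvae, against 8.50, 6.74 and 3.69 CPM in 250 ng/mL larvae. Its log2 fold change of 1.03 ± 0.27 was 0.61 without both replicate 3 libraries, and the lowest 750 ng/mL library lay barely above the highest 250 ng/mL library. The spermine synthase gene sms (0.28 ± 0.08), the elongation factor gene tcea1 (0.32 ± 0.09), the phosphatase gene dusp23b (0.47 ± 0.13), and adob (0.38 ± 0.10) and aifm4 (0.44 ± 0.12) were also higher, all without overlap. Without both replicate 3 libraries tcea1 was at 0.22 and dusp23b at 0.31.

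Calmodulin genes, the intracellular binding partners of bepridil, were all above 0. Calm2a had 190, 177 and 209 CPM in 750 ng/mL larvae, against 156, 168 and 140 CPM in 250 ng/mL larvae, a log2 fold change of 0.31 ± 0.09. Calm2b had 646, 584 and 711 CPM in 750 ng/mL larvae, against 563, 556 and 483 CPM in 250 ng/mL larvae, or 0.28 ± 0.10. Means at 750 ng/mL, 192 CPM for calm2a and 647 CPM for calm2b, were close to the untreated means of 190 and 644 CPM. The highest 750 ng/mL and the lowest 250 ng/mL library of both genes was replicate 3, and without both of these libraries the values were 0.18 for calm2a and 0.14 for calm2b. The remaining calmodulin genes, named after their values were seen, were calm1a (0.21 ± 0.09), calm1b (0.26 ± 0.11), calm3a (0.22 ± 0.09) and calm3b (0.13 ± 0.09). Calmodulin paralogs encode near-identical proteins, so the split of reads between them is uncertain.

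The 4 L-type or T-type pore genes of highest mean CPM overlapped between the doses. Cacna1sb, the pore of the skeletal muscle L-type channel, had 101, 104 and 81.2 CPM in 750 ng/mL larvae, against 104, 98.0 and 112 CPM in 250 ng/mL larvae. Cacna1c, the cardiac L-type pore, had 85.6, 91.0 and 84.1 CPM in 750 ng/mL larvae, against 85.8, 86.5 and 100 CPM in 250 ng/mL larvae. Their log2 fold changes were -0.14, with a 95% interval of -0.39 to 0.11, and -0.06, with an interval of -0.39 to 0.26. Cacna1da was at -0.32 ± 0.22, with 24.5 CPM in replicate 3 at 750 ng/mL against 44.9 and 48.5 CPM in the other 750 ng/mL libraries, and cacna1sa was at -0.04 ± 0.10. With both replicate 3 libraries left out these 4 pore genes were at 0.02 (cacna1sb), 0.04 (cacna1c), 0.04 (cacna1da) and 0.09 (cacna1sa). The auxiliary subunit gene cacnb2a lay lower, at -0.36 ± 0.12 with no overlap.

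Over 68 tested calcium channel, exchanger, store and calmodulin genes the median was -0.11, with 5 higher and 5 lower at an unadjusted p under 0.05. Over all tested genes 3.00% were higher and 4.79% lower at that p. The 5 higher ones were calmodulin genes. That median was 0.04 without both replicate 3 libraries. Potassium and sodium channel genes had a median of -0.23 and 61 of 73 below 0, but -0.02 and 30 above 0 without both of these libraries. Their mean log2 CPM deviation was -0.45 in replicate 3 at 750 ng/mL and 0.24 in replicate 3 at 250 ng/mL, and between -0.01 and 0.13 in the other 4 libraries. Kcnh2b, a gene of the ERG potassium channel family, had 4.55, 5.15 and 2.56 CPM in 750 ng/mL larvae and 5.93, 5.38 and 9.01 CPM in 250 ng/mL larvae, with replicate 3 at the same opposite extremes. Its log2 fold change was -0.73 ± 0.24, and -0.22 without both replicate 3 libraries.

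Respiratory chain genes encoded in the nucleus were the list with the most members separated upward. Their products build the complexes that pass electrons to oxygen and make ATP in mitochondria. Of 86 tested genes 0 passed in edgeR, 84 were above 0, and 42 (48.8%) lay wholly above the 250 ng/mL libraries, against 7.44% of all genes. The median log2 fold change was 0.19, and members ran from -0.12 to 0.35, so every fitted difference was under 1.5-fold.

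Cox6c, a subunit of cytochrome c oxidase, had 240.4, 240.2 and 272 CPM in 750 ng/mL larvae, against 205, 220 and 188 CPM in 250 ng/mL larvae. Ndufa3, a complex I subunit gene, had 49.0, 52.1 and 52.5 CPM in 750 ng/mL larvae, against 44.5, 44.2 and 40.8 CPM in 250 ng/mL larvae. Cycsb, a cytochrome c gene, had 294, 304 and 299.9 CPM in 750 ng/mL larvae, against 249, 262 and 228 CPM in 250 ng/mL larvae. In each, replicate 3 at 250 ng/mL was the lowest of all 6. The list's mean log2 CPM deviation was 0.05, 0.04 and 0.19 in 750 ng/mL larvae and -0.03, -0.01 and -0.24 in 250 ng/mL larvae. Leaving out both replicate 3 libraries gave a median of 0.06, with 75 of 86 above 0.

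Cytosolic ribosomal protein genes had the replicate 3 libraries at the same opposite extremes, but the doses overlapped. The list's mean log2 CPM deviation was 0.006, 0.024 and 0.177 in 750 ng/mL larvae and -0.015, 0.022 and -0.214 in 250 ng/mL larvae. Of 82 genes 81 were above 0 and 22 (26.8%) lay wholly higher, against 7.44% of all genes, with a median of 0.13, which was 0.01 with 54 above 0 without both replicate 3 libraries. Rpl22, a large subunit protein gene, had 469, 495 and 529 CPM in 750 ng/mL larvae, against 444, 443 and 386 CPM in 250 ng/mL larvae. Proteasome genes, for the protease that degrades ubiquitinated proteins, had a median of 0.16 and 47 of 49 above 0, but -0.0013 and 24 above 0 without both libraries. Within that list psme4a, a proteasome activator gene, was at -0.45 ± 0.16 with overlapping groups, and at -0.29 without replicate 3 at 250 ng/mL.

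Genes of ribosome assembly, as distinct from ribosomal proteins, lay mostly lower at 750 ng/mL in the fit, but not in replicate 3. The list's mean log2 CPM deviation was -0.06, -0.08 and 0.03 in 750 ng/mL larvae and 0.10, 0.11 and -0.11 in 250 ng/mL larvae, so the doses overlapped. Their median was -0.07 with 57 of 73 below 0 and 13 (17.8%) wholly lower, against 6.28% of all genes. The median was -0.18 with 1 of 73 above 0 without both replicate 3 libraries. Polr1a, the largest subunit of RNA polymerase I, had 28.1, 29.2 and 30.1 CPM in 750 ng/mL larvae, against 34.8, 36.03 and 34.4 CPM in 250 ng/mL larvae, a log2 fold change of -0.27 ± 0.08. Heatr1 and mybbp1a, nucleolar factors, were at -0.29 ± 0.10 and -0.27 ± 0.09. All 3 genes were separated between the doses with little spread inside them.

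**Figure D4:**
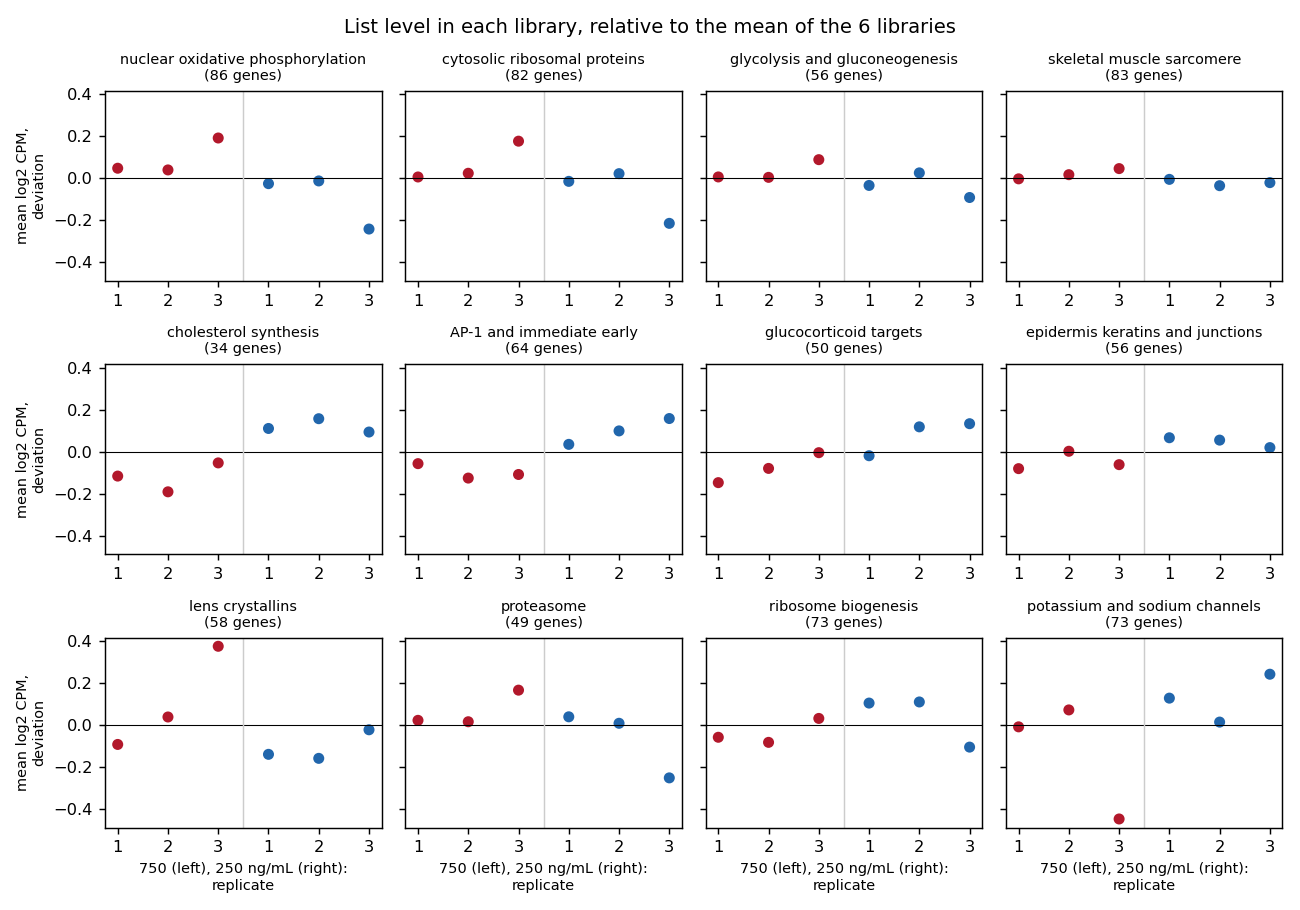
Each panel gives, for 1 gene list, the mean log2 CPM deviation of its genes from their mean over the 6 libraries (vertical axis), with 750 ng/mL replicates at left (red) and 250 ng/mL replicates at right (blue). Respiratory chain, ribosomal protein, proteasome and channel lists have replicate 3 of the 2 doses at opposite extremes. Cholesterol synthesis, AP-1, epidermis, respiratory chain and, narrowly, skeletal muscle lists separate the doses in all 6 libraries.

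Of 56 glycolysis and gluconeogenesis genes, 12 (21.4%) lay wholly higher, against 7.44% of all genes. The list median was 0.12, and 0.05 without both replicate 3 libraries. Fbp2, the fructose-bisphosphatase gene of muscle, led the list with 105, 92.4 and 101 CPM in 750 ng/mL larvae, against 80.1, 77.0 and 57.7 CPM in 250 ng/mL larvae. Its log2 fold change was 0.47 ± 0.11, and 0.33 without both replicate 3 libraries. Pck2 (0.24 ± 0.09), a gluconeogenic enzyme gene, and ldha (0.24 ± 0.09), lactate dehydrogenase, also lay wholly higher.

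Of 83 skeletal muscle sarcomere genes, 20 (24.1%) lay wholly higher, against 7.44% of all genes, and 6 (7.23%) wholly lower, against 6.28% of all genes. The median was 0.08, and 0.05 without both replicate 3 libraries. At an unadjusted p under 0.05 there were 0 higher and 5 lower of the 83, against 3.00% and 4.79% of all genes. Wholly higher genes, picked after their values were seen, included the troponin genes tnnt3a (0.19) and tnnc1b (0.23), the tropomyosin genes tpm1 (0.15) and tpm2 (0.20) and the parvalbumin gene pvalb2 (0.22). The 4 genes of smallest p all lay wholly lower. Ttn.2, a gene of the giant sarcomere protein titin, had 2288, 2211 and 1864 CPM in 750 ng/mL larvae, against 2656, 2482 and 2863 CPM in 250 ng/mL larvae, a log2 fold change of -0.33 ± 0.13. Neb, nebulin, was at -0.27 ± 0.11 and ryr3, a calcium release channel gene, at -0.27 ± 0.11, while the junctophilin gene jph1a was at -0.39 ± 0.15. Leaving out both replicate 3 libraries brought them to -0.19 (ttn.2), -0.11 (neb), -0.14 (ryr3) and -0.20 (jph1a). Without replicate 3 at 250 ng/mL alone ryr3 was at -0.14 and neb at -0.18, and without replicate 3 at 750 ng/mL alone jph1a was at -0.25.

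Lens crystallin genes, whose proteins fill the lens fibre cells, had the highest list median at 0.24, with 56 of 58 above 0. Of these 58 genes 11 (18.97%) lay wholly higher, against 7.44% of all genes. The list's mean deviation was -0.09, 0.04 and 0.37 in 750 ng/mL larvae and -0.14, -0.16 and -0.02 in 250 ng/mL larvae. Crygm2d17 had 172, 166 and 223 CPM in 750 ng/mL larvae, against 151, 162 and 150.0 CPM in 250 ng/mL larvae. Replicate 3 at 750 ng/mL was the highest library. Without it the list median was 0.09 and crygm2d17 was at 0.14, against 0.28 with all libraries. Gamma crystallins are near-identical copies, so their counts may be split or shared among members.

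Exocrine pancreas genes, which make the digestive enzymes, were below 0 in 28 of 33 with a median of -0.20. Of these genes 2 (6.06%) lay wholly lower, against 6.28% of all genes. Rbpjl, a transcription factor gene of acinar cells, had 1.90, 2.22 and 1.096 CPM in 750 ng/mL larvae, against 3.05, 3.52 and 3.25 CPM in 250 ng/mL larvae. The list's mean deviation was -0.15, -0.15 and 0.00 in 750 ng/mL larvae and -0.09, 0.30 and 0.09 in 250 ng/mL larvae, so the doses overlapped. Leaving out 1 library at a time moved its median between -0.34 and -0.06. Summed levels of pancreas markers lay between 4602 and 5270 CPM in 750 ng/mL larvae and between 4499 and 6723 CPM in 250 ng/mL larvae.

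**Figure D5:**
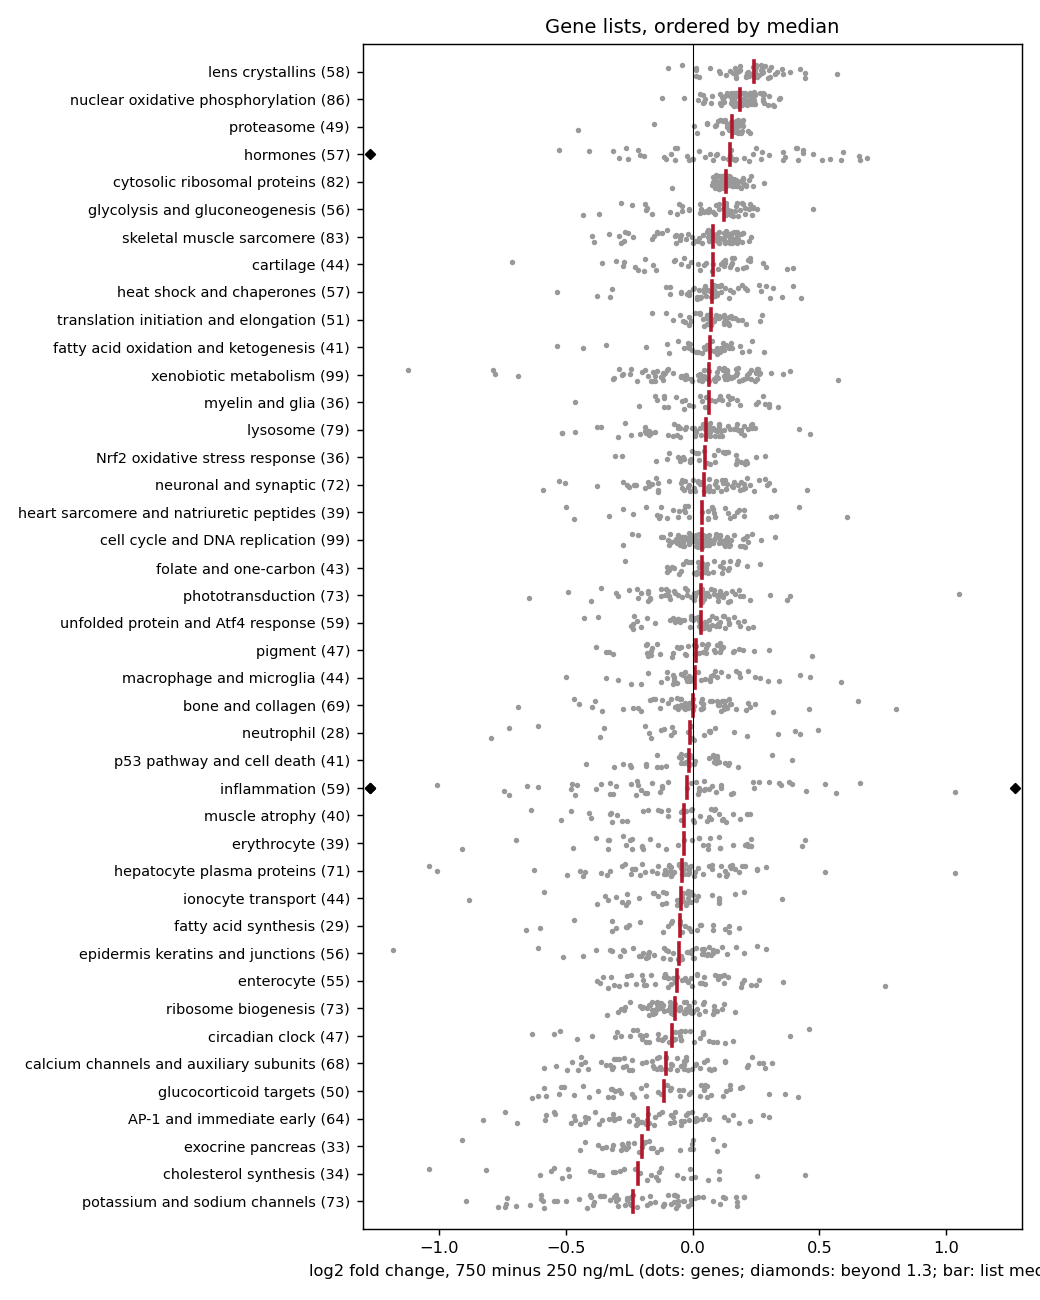
Each row is 1 of 42 gene lists, with the number of tested genes in brackets, and each dot is a gene's log2 fold change of 750 over 250 ng/mL larvae (horizontal axis); red bars are list medians, and 4 genes beyond 1.3 are drawn as diamonds at the edge. Medians run from -0.23 for potassium and sodium channels to 0.24 for lens crystallins.

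Over all lists, 0 of the 2218 tested list genes passed in edgeR, while DESeq2 called ldlra and dsg2.1 among them. Hormone genes had a median of 0.15 with 38 of 57 above 0, and 0.02 with 33 above 0 without both replicate 3 libraries. Phototransduction (0.03), neuronal and synaptic genes (0.05), p53 pathway (-0.01), neutrophil (-0.01), macrophage (0.01), bone and collagen (0.00), pigment (0.01) and cell cycle (0.04) had medians within 0.05 of 0. Leaving out both replicate 3 libraries moved phototransduction to -0.07, with 18 of 73 above 0. It moved neuronal and synaptic genes to 0.07, with 56 of 72 above 0, and the others stayed within 0.05 of 0. Inflammation genes had a median of -0.02, with 3 (5.09%) wholly higher, against 7.44% of all genes, and 9 (15.3%) wholly lower, against 6.28% of all genes. At an unadjusted p under 0.05, 2 of these genes were higher and 8 lower, against 3.00% and 4.79% of all genes.

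Some genes that lay far from untreated larvae at both doses had similar levels at 750 and 250 ng/mL; they were named after their values were seen. The drug-metabolizing cytochrome P450 gene cyp3a65 had 204, 220 and 254 CPM in 750 ng/mL larvae, against 206, 266 and 278 CPM in 250 ng/mL larvae, and untreated larvae averaged 46.6 CPM. The difference between the doses was -0.15, with a 95% interval of -0.51 to 0.22. The gut metalloprotease gene mep1b had 6.68, 8.92 and 11.5 CPM in 750 ng/mL larvae and 9.34, 10.8 and 8.62 CPM in 250 ng/mL larvae, beside a mean of 0.952 CPM in untreated larvae. Its difference was -0.09, with an interval of -0.68 to 0.51. The enzyme gene gch2, of pteridine synthesis in pigment cells, had 14.8, 14.1 and 10.05 CPM in 750 ng/mL larvae and 15.8, 15.1 and 7.56 CPM in 250 ng/mL larvae, beside 60.9 CPM in untreated larvae. Its difference was 0.02, with an interval of -0.45 to 0.50. The groups overlapped for all 3 genes.

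The order of the mean levels at 0, 250 and 750 ng/mL differed among genes. Among the 24 genes of smallest p, untreated larvae lay between the 2 doses for 11 (45.8%), against 24.1% of all tested genes. The 24 were picked for a difference between the 2 doses, and a wider gap by itself holds the untreated level more often. Larvae at 750 ng/mL lay between those at 0 and 250 ng/mL for 10 of the 24 (41.7%), against 43.7% of all, and larvae at 250 ng/mL lay between those at 0 and 750 ng/mL for 3 (12.5%), against 32.3% of all. Among lists, 750 ng/mL lay between 0 and 250 ng/mL for 43 of 49 proteasome genes, 27 of 33 exocrine pancreas genes, 31 of 43 folate and one-carbon genes and 41 of 57 heat shock genes. By contrast, 250 ng/mL lay between for 64 of 82 ribosomal protein genes and 50 of 58 lens genes. These orders use means that include the replicate 3 libraries. Without both of those, the list medians of 750 minus 250 ng/mL were -0.0013 (proteasome), -0.28 (exocrine pancreas), -0.003 (folate and one-carbon), 0.02 (heat shock), 0.01 (ribosomal proteins) and 0.10 (lens). The comparisons share the 250 and 750 ng/mL libraries, so these orders are descriptions and are given no test.

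Genes called at the highest dose were chosen from libraries other than the 6 here. Scaling and the estimate of spread were shared by all 12 libraries. Of the 4058 genes (18.8%) higher at 1295 than at 0 ng/mL, 66.5% were above 0 at 750 against 250 ng/mL, with a median of 0.07. Of the 4790 genes (22.2%) lower at 1295 ng/mL, 37.1% were above 0, with a median of -0.07, beside 49.7% of all tested genes. Without both replicate 3 libraries the median of the first set was 0.005, so its position rests on them. The mean log2 CPM deviation of the lower set was -0.18 in replicate 3 at 750 ng/mL and 0.12 in replicate 3 at 250 ng/mL, against 0.00 to 0.03 in the other 4 libraries.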

How the data were processed

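Messenger RNA of 15 pooled whole larvae per library was sequenced, 3 libraries at each of 4 doses. Libraries were made with a stranded kit, per the labels' protocols. Trimmomatic, HISAT2, HTSeq and build GRCz11 are named in the submitters' processing notes, and no versions, annotation or strand setting of the counting are named there. Raw gene-level read counts were deposited by the authors, with no sign of normalization in the values, and each sample's own file matched the table. Of 25099 gene names, 18 had no count and 10 had become spreadsheet dates.

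The counts were tested with edgeR 4.0.16 in R 4.3.3. Genes passing filterByExpr (21581) and TMM factors entered 1 quasi-likelihood fit of all 12 libraries by dose, with 8 residual degrees of freedom, and the contrast of 750 with 250 ng/mL was adjusted by Benjamini-Hochberg over all tested genes. SE was taken as the absolute log2 fold change over the square root of F. Alternatives were other scalings, filters, samples and thresholds, a replicate block, DESeq2 1.42.0 and limma-voom (limma 3.58.1), and leaving out libraries. Fits were tested on simulated data. Chi-square over degrees of freedom between replicates within 750 and within 250 ng/mL ran from 3.46 to 9.90, so no replicate of these doses repeated another of its dose. Other pairs of libraries were not checked in this way. The common dispersion of 0.0146 is a coefficient of variation of 12.1%.

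Of 2420 list symbols, 2289 were in the table, 82 through RefSeq synonyms. The comparison, its gene lists and its naming rule were chosen with earlier results of these data known. As no gene passed, the 12 curated genes of smallest p per direction at 1 CPM or more are given as values that did not pass. The 4 L-type or T-type pore genes of highest mean CPM are given too. The rule also took up to 3 or 4 members of smallest p per list. Not all of those members are given above, and some lists, such as ionocyte transport and lysosome, are not described. Some further genes were named outside this rule, with their values known.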

Additional observations from a re-analysis of the deposited data

How the results depend on the processing

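The count of 0 called genes held under every scaling, filter, sample set and threshold tried except 2: DESeq2 called 5, and leaving out replicate 3 at 750 ng/mL called 1, zgc:92590, at -2.14 with an adjusted p of 0.0317 in edgeR, so that leaving out 1 of the 12 libraries at a time gave 0 to 1. Genes at an unadjusted p under 0.05 numbered 256 to 949 higher and 361 to 1696 lower when 1 library was left out. The fewest were without replicate 3 at 250 ng/mL (256 higher, 384 lower) or at 750 ng/mL (314 higher, 361 lower). The most lower were without replicate 2 at 750 ng/mL. The most higher, 949, were without replicate 2 at 1295 ng/mL, a library outside the comparison that shared in the scaling. The median log2 fold change over all tested genes was then 0.0202, against -0.0015 with all libraries. With both replicate 3 libraries left out, an alternative chosen after seeing the data, 170 genes were higher and 280 lower at that p, from 4 libraries in place of 6. Higher genes made up 38.55% of these with TMM, 28.5% with total counts only and 46.4% with RLE. Deviations of same-numbered libraries from their dose means correlated at 0.045, -0.275 and -0.233. These values cannot decide whether replicate numbers pair the samples, since the outlying replicate 3 libraries weigh on them and the labels give no clutch. With the replicate block 0 genes were called, and in the 6 libraries alone the block left 211 higher and 488 lower at an unadjusted p under 0.05; not every library correlated best with its own number.

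Without both replicate 3 libraries the median of genes higher at 1295 ng/mL was 0.004965, and the sign turned for pparab (0.0101), nkx2.7 (-0.00315), cacna1sb (0.0177), cacna1c (0.0367), cacna1da (0.0416) and cacna1sa (0.0899). Leaving out 1 library at a time moved cacna1c between -0.102 and 0.0127, above 0 without replicate 3 at 250 ng/mL. It moved cacna1sa between -0.115 and 0.0469, above 0 without replicate 3 of either dose; the causes were not tested. Of the other results for named genes 3408 kept direction and side of the threshold and 4 passed only in DESeq2. For list medians 980 moved by less than the spread between replicates and 28 by more. That spread includes the replicate 3 libraries, so it is wide for lists in which they differ, and a change of sign was not counted apart. The calcium channel list, for example, went from -0.11 to 0.04 without both replicate 3 libraries. The settings counted include leaving out libraries at 0 and 1295 ng/mL, so neither the 3408 nor the 980 measures how firm the results are. Most named genes were also picked for small p in these data. The smallest adjusted p was 0.619 in the main fit, far from the threshold. Below 1 CPM, counting error limits the comparison.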

Other observations

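A few genes had a large value in 1 library of a dose. The Mx family gene mxc, which interferon induces, had 3.46, 2.395 and 21.6 CPM in 750 ng/mL larvae, against 2.69, 2.41 and 3.14 CPM in 250 ng/mL larvae. The secretogranin gene scg5 had 0.576, 0.599 and 10.8 CPM in 750 ng/mL larvae, against 0.658, 3.28 and 0.560 CPM in 250 ng/mL larvae. These genes were chosen after their values were seen, and each high library was a single pool of larvae.

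The leptin gene lepa, at 0.66 ± 0.58, lay above 0 where its paralog lepb lay below, and the interleukin gene il11a lay at -1.74 ± 0.69. Their groups did not overlap between 750 and 250 ng/mL, few reads stood behind them, and none passed an adjusted p of 0.05 in edgeR. The vitamin D degrading enzyme gene cyp24a1 had 38.7, 43.1 and 59.8 CPM in 750 ng/mL larvae, against 31.9, 30.8 and 43.2 CPM in 250 ng/mL larvae, with overlap between the doses.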
